A study of Homo sapiens with 26 samples.

Results

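The genes described here encode the mTORC1 pathway: the mTOR complexes, their upstream switches at the lysosome and the translation factors downstream of them. They were chosen by symbol, with earlier results of these data known. They are 38 of the 19704 genes in the deposited table, each represented by its row with the highest mean. By role they comprise 7 genes of the mTOR complexes, 4 of the TSC complex and its target RHEB, 9 of the Rag GTPases, the Ragulator scaffold and SLC38A9, 3 of GATOR1, 5 of GATOR2, 2 stress-induced brakes (SESN2 and DDIT4) and 8 translation outputs. A mean of at least 1 FPKM over all libraries was required for testing, and 37 of the 38 passed. WDR24 did not.

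The cells were U2OS, an established human osteosarcoma line, carrying an Arntl::dLUC luciferase reporter of the circadian clock. All dishes (35 mm, 375000 cells seeded) were given 5% serum, the buffers PIPES and HEPES at 25 mM each, and dexamethasone at 0.1 µM, a glucocorticoid that sets cellular clocks to a common phase. They were then sealed and kept at atmospheric carbon dioxide. The groups differed in the pH of that medium, 7.4 or 6.3, and each had 13 libraries of polyadenylated RNA, 1 every 4 h from 4 to 52 h. Plates for 28 to 52 h were seeded and treated a day before those for 4 to 24 h, so that plate set and time in medium cannot be told apart. The title of the series places the work in hypoxia and names mTOR inhibition by acid, but the labels of these libraries give no hypoxic group and no mTOR inhibitor. Since each pH has a single library at each time, every SD and p-value measures the spread over time points, real change over time included.

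mTORC1 is a kinase complex that promotes protein synthesis and growth when growth factors, energy and amino acids suffice. Growth factor signals reach it through the TSC complex, which switches off the small GTPase RHEB. Amino acid signals reach it through the Rag GTPases, which recruit it to the lysosome on the Ragulator scaffold; GATOR1 switches off the Rags and GATOR2 opposes GATOR1. Much of this control acts on proteins and their position in the cell. The values here are transcript levels and carry no measure of kinase activity.

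Depth, estimated from the steps between low values, lay between 19.5 and 35.9 M fragments (M, mega) in 24 libraries. The neutral library of 12 h was shallower, with 9.51 M, as was the acidic one of 8 h, with 11.1 M. Such steps can also be met by a whole multiple of a depth, so these depths are uncertain by such a factor. The 2 shallow libraries also listed the most genes at 0, 4252 and 4563, beside 3257 to 4149 in the others. In 4 libraries the deviation of genes from their means followed GC content across genes, with r = 0.65 at pH 7.4, 28 h, −0.55 at 44 h and −0.64 at 48 h, and 0.58 at pH 6.3, 20 h. The 8 osteosarcoma and mesenchymal markers summed to 1278 to 2418 FPKM at pH 7.4 and to 1067 to 2405 at pH 6.3. These sums rested mainly on VIM (medians of 605 FPKM at pH 7.4 and 675 at pH 6.3) and SPARC (1005 and 933). VIM, SPARC, COL1A1 and RUNX2 were detected in every library. Of the 8 markers 2 were under 1 FPKM in every library, among them the bone factor SP7, at 0 throughout. The 6 epithelial markers summed to 8.89 to 17 and 5.05 to 11 FPKM, the 6 leukocyte markers to 0.460 to 2.30 and 0.678 to 9.31, and the 3 endothelial markers to 0.239 to 2.87 and 0.304 to 1.14. FPKM are relative within a library, and in bulk RNA fewer cells with a transcript cannot be told apart from less RNA per cell.

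Several members carry in their promoter the letters CACGTG, an E-box, which is the core of the CLEAR element bound by the lysosomal regulators TFEB and TFE3 and is also read by the clock factors CLOCK and BMAL1. RefSeq promoters (GRCh38.p14) were matched for 32 of the 38 members, and the 250 bases before each start were searched on both strands. An E-box was found in 8 members and in 19.0% of 42 member promoters, beside 6.32% of 34943 promoters in all and 8.16% of the 13404 promoters of tested genes. The lines below, on the strand of the gene, show the windows of 6 of those 8 members because they differ in how their transcripts behaved; the E-box is in capitals.
RRAGC, chr1:38859862-38859901, minus strand: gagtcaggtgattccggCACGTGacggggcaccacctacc
LAMTOR1, chr11:72103440-72103479, minus strand: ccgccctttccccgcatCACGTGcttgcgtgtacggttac
RRAGB, chrX:55717707-55717746, plus strand: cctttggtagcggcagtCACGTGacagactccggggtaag
LAMTOR4, chr7:100148887-100148917, plus strand: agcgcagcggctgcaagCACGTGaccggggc
TSC2, chr16:2047854-2047893, plus strand: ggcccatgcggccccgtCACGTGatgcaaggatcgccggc
EIF4B, chr12:53006417-53006455, plus strand: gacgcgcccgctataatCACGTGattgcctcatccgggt

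The E-box sequences went with transcripts of every behaviour: RRAGC and LAMTOR1 were lower at pH 6.3, EIF4B was higher, and RRAGB, LAMTOR4 and TSC2 did not pass the test. EIF4E, which was lower by a small margin, and EIF4G1, which did not pass, held it too. A second pattern, TGATGNAA, the composite element bound by the stress factor ATF4, was found in 1 of 42 member promoters (2.38%, beside 3.15% of all and 1.72% of those of tested genes). That promoter was the one of TSC2, where the element overlaps the E-box. No match was found for SESN2 and DDIT4, both known targets of ATF4. Of the 38 members 6 had no promoter matched and were not searched. A match is a description of the letters, not evidence of binding.

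The comparison of acidic with neutral medium asked how each part of the pathway stood over the whole course. NPRL2, a GATOR1 subunit, and SEC13, a GATOR2 subunit, showed the largest increases among the members, 1.86 and 1.56 on the log2(FPKM + 1) scale, which understates changes of low values. EIF4EBP2, a repressor of cap-dependent translation, and DEPDC5, another GATOR1 subunit, showed the largest decreases, −0.97 and −0.82. Both brakes were higher, and 4 of the 9 Rag-Ragulator genes, among them RRAGA, RRAGC and SLC38A9, were lower. With limma, time points as blocks and Benjamini-Hochberg adjustment over all 11838 genes, 12 of 37 members were higher (32.4%, beside 22.4% of all genes tested) and 12 were lower (32.4%, beside 37.3%). No test was made of these shares. The median member differed by −0.04 and the median gene by −0.12.

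**Figure D1:**
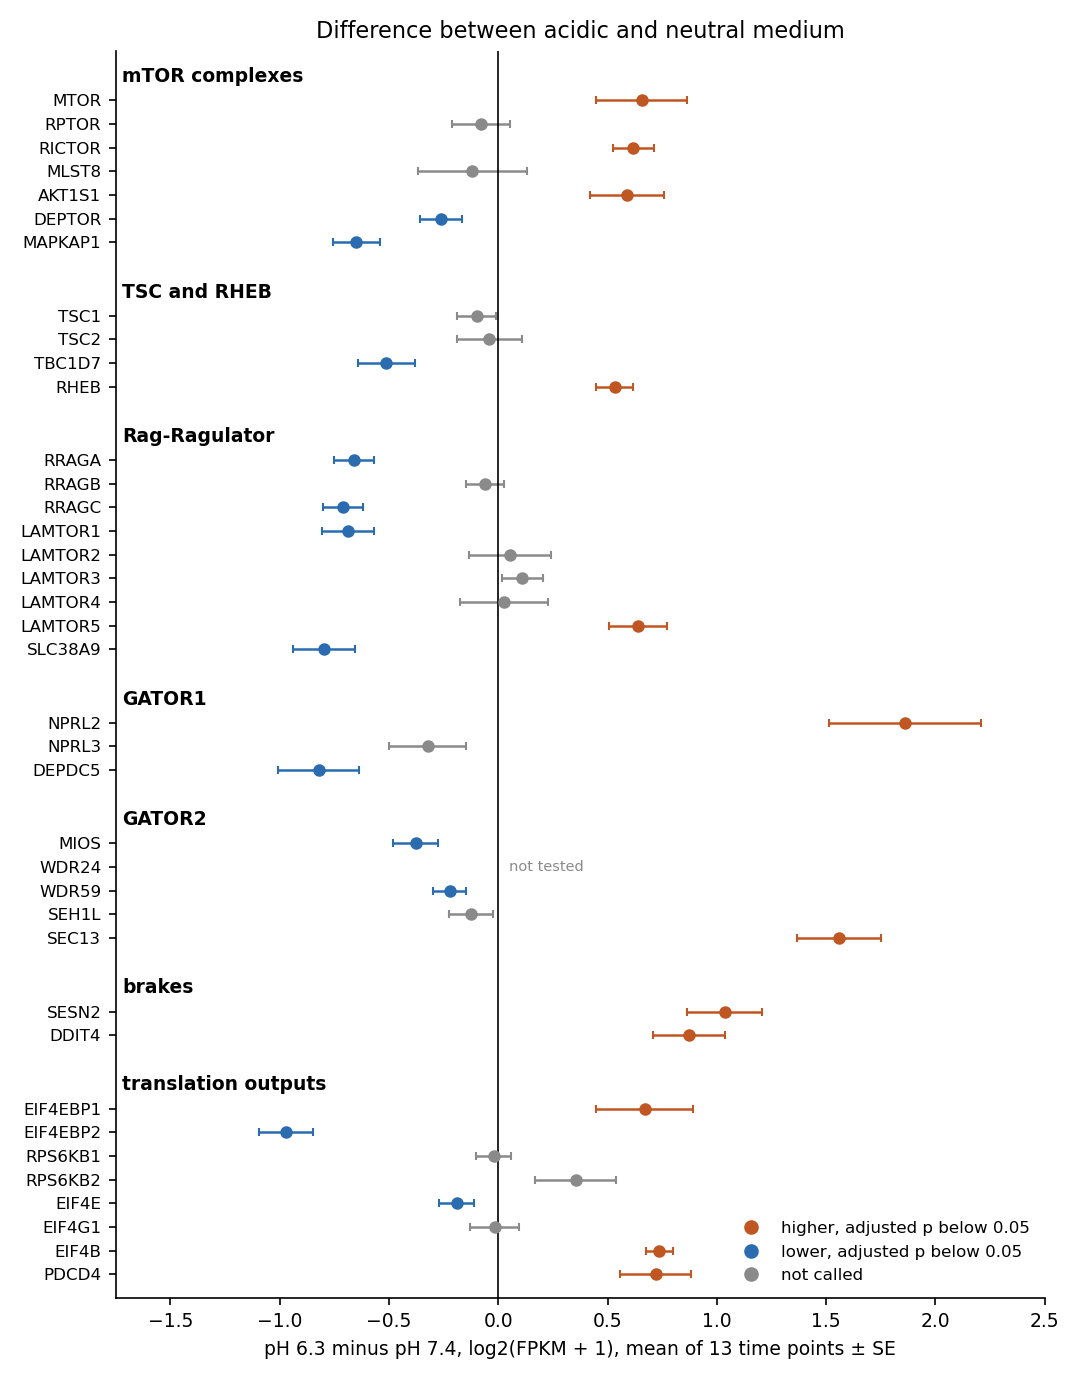
Difference between media for each member by role; x axis, pH 6.3 minus pH 7.4 in log2(FPKM + 1), points are means of 13 time points and bars are the SE from limma, orange higher and blue lower at an adjusted p below 0.05, grey not called. NPRL2 (1.86) and SEC13 (1.56) stand farthest right and EIF4EBP2 (−0.97) farthest left, and subunits of the same complex lie on both sides of 0.

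By quantile normalization the split over all genes was 3348 higher and 3611 lower, and after removal of each library's dependence on GC content 3736 and 3851, beside 2651 and 4415 as reported. The median gene then differed by −0.02 and −0.01. Among members the corresponding counts were 13 higher and 10 lower, and 14 and 10. Of the 24 calls, 11 held under each of the 23 alternatives tried, 8 (MTOR, AKT1S1, MAPKAP1, TBC1D7, LAMTOR5, NPRL2, DDIT4 and PDCD4) were lost within 4 to 24 h alone and under no other alternative, and 5 (DEPTOR, MIOS, WDR59, EIF4EBP1 and EIF4E) were lost elsewhere.

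The kinase itself was higher in acid late in the course. MTOR (chromosome 1, 11106535 to 11262507, minus strand, GRCh38) ran from 8.63 through a median of 12.8 to 18.6 FPKM at pH 7.4 and from 7.89 through 27.1 to 36.7 at pH 6.3. At 4 h the acid library was the higher, 12.7 beside 8.63 FPKM. At 8, 12 and 16 h the acid libraries were the lower ones, 7.89, 8.62 and 13.6 FPKM beside 13.6, 18.6 and 15.5. The acid library of 8 h and the neutral one of 12 h were those of low depth, and at 16 h the difference was −0.18. From 20 h on every acid library was the higher, and at 28 to 52 h the media did not overlap. Over the whole course it was higher by 0.66 (SE 0.21, adjusted p = 0.0119). Within 4 to 24 h alone the mean difference was −0.04 and within 28 to 52 h 1.25.

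The scaffolds that divide mTOR between its complexes differed from one another. RICTOR, which defines mTORC2, ran from 17.6 through 22.5 to 28.6 FPKM at pH 7.4 and from 21.7 through 36.0 to 41.6 at pH 6.3. It was near equal in both media at 4 h (21.9 and 21.7) and higher in acid at each of the 12 later times. The mean difference over the course was 0.62 (SE 0.09, limma adjusted p = 4.18e-05). Exons of OSMR on the opposite strand cover 229 bases of those of RICTOR, 1.7% of its exonic length. OSMR had means of 96.7 FPKM in neutral and 189 in acidic medium, and sharing of reads between these genes was not tested. RPTOR, which defines mTORC1, ran from 3.58 through 5.93 to 11 and from 3.09 through 6.26 to 8.68 FPKM, overlapping throughout, with a difference of −0.08 (SE 0.13, adjusted p = 0.620) that was 0.09 after quantile normalization. MAPKAP1, which encodes the mTORC2 subunit SIN1, fell from 58.8 ± 3.61 to 38.2 ± 10.8 FPKM (SD, n = 13): its acid libraries started at 66.6 at 4 h, were at 26.2 by 16 h and lay below every neutral library at 28 to 52 h. Its difference was −0.65 (SE 0.11, adjusted p = 9.25e-05), opposite in sign to that of RICTOR in the same complex.

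Both mTOR inhibitor subunits passed the test, in opposite directions. AKT1S1, which encodes PRAS40, was higher by 0.59 (SE 0.17, adjusted p = 0.00663), with 5.24 to 21.0 FPKM at pH 7.4, median 11.2, and 12.8 to 23.2 at pH 6.3, median 16.0. Its lowest and highest neutral values were those at 48 h and 28 h, both libraries that followed GC content. DEPTOR, at low levels of 0.989 to 3.15 FPKM (median 1.97) and 0.786 to 1.91 FPKM (median 1.39), fell by 0.26 (SE 0.10, adjusted p = 0.0266), and this call held in 14 of 22 alternatives; leaving out 12, 16, 40 or 48 h ended it. After quantile normalization its difference was −0.03 (adjusted p = 0.791) and after GC correction −0.14 (adjusted p = 0.199). MLST8, shared by both complexes, ran from 3.11 through 7.55 to 24.6 and from 3.81 through 7.19 to 15.8 FPKM and did not pass (−0.12, adjusted p = 0.697, and 0.03 after quantile normalization).

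In the TSC complex, which inactivates RHEB, the core genes did not pass the test. TSC1 differed by −0.10 (adjusted p = 0.340) and TSC2 by −0.04 (adjusted p = 0.827), and both signs turned with the scaling. TSC1 ran from 12.7 through 16.5 to 18.5 FPKM at pH 7.4 and from 10.3 through 13.9 to 21.9 at pH 6.3. In acid its lowest value was at 4 h and its highest at 52 h, and its mean was 12.3 at 4 to 24 h and 18.1 at 28 to 52 h (0.51, SE 0.10, adjusted p = 0.000206 between the plate sets). TBC1D7, the third subunit, ran from 8.80 through 13.4 to 17.1 FPKM and in acid from 6.45 through 8.97 to 15.2. It was higher in acid at 4 and 8 h and lower at the 11 later times, with a mean difference of −0.51 (SE 0.13, adjusted p = 0.00287). RHEB, the activator of mTORC1, ran from 93.1 through 117 to 144 FPKM at pH 7.4 and from 136 through 178 to 202 at pH 6.3. It was higher in acid at 13 of 13 times, by 0.53 (SE 0.08, adjusted p = 6.61e-05), with a difference of only 0.02 at 4 h and 0.07 at 48 h.

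The Rag GTPases work as pairs of RRAGA or RRAGB with RRAGC or a close relative. RRAGA ran from 31.0 through 40.1 to 42.6 FPKM at pH 7.4 and from 16.1 through 25.2 to 30.5 at pH 6.3, so that no acid library reached the lowest neutral one. It fell by 0.66 in acid (SE 0.09, adjusted p = 1.70e-05). RRAGA and RRAGB are close in sequence and reads may be split between them, which makes both levels uncertain. RRAGB ran from 8.01 through 12.3 to 18.6 and from 7.34 through 12.2 to 18.1 FPKM and did not pass (−0.06, adjusted p = 0.574), its sign turning after GC correction (0.09).

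RRAGC (chromosome 1, 38838198 to 38859823, minus strand) was equal in both media at 4 h, 24.0 and 23.8 FPKM. It then rose in neutral medium to 71.4 at 48 h and in acid from 20.4 at 8 h to 40.7 at 52 h. The neutral library of 48 h followed GC content, and RRAGC, whose transcripts are 39.9% GC, was there at 1.52 times the median of the other neutral libraries. Neutral values had a median of 49.8 and acid values one of 28.9, with no overlap at 28 to 52 h. The difference was −0.71 (SE 0.09, adjusted p = 9.56e-06), lower at 13 of 13 times. A same-strand transcript, AL139260.2, covers 1183 bases of its annotated exons. SLC38A9, the lysosomal arginine sensor, was at 17.5 FPKM at 4 h and 6.72 at 12 h in acid, where neutral cells had 19.4 and 27.0. It then came back to 25.3 at 40 h (27.2 in neutral medium). Its medians were 27.9 and 18.0 FPKM and its ranges 19.4 to 36.6 and 6.72 to 25.3, and the difference was −0.80 (SE 0.14, adjusted p = 0.000171), lower at 13 of 13 times.

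Ragulator subunits did not move as a unit. LAMTOR1, which anchors the scaffold to the lysosome, ran from 61.4 through 89.5 to 98.7 FPKM at pH 7.4 and from 36.5 through 51.5 to 81.1 at pH 6.3; it was higher in acid at 4 h (81.1 beside 61.4) and lower at the 12 later times, with a mean difference of −0.69 (SE 0.12, adjusted p = 0.000129). LAMTOR5 went the other way, from 173 through 232 to 269 FPKM in neutral medium and from 218 through 434 to 498 in acid, higher by 0.64 (SE 0.13, adjusted p = 0.000582). Until 12 h its acid values (218 to 241) lay within the neutral range, and from 28 h all of them exceeded every neutral value. An antisense transcript, LAMTOR5-AS1, overlaps 418 bases of its exons. The ratio of LAMTOR5 to LAMTOR1 in FPKM had a median of 2.61 in neutral and 8.11 in acidic medium, and reached 10.3 at 52 h. LAMTOR2, LAMTOR3 and LAMTOR4 did not pass (0.05, 0.11 and 0.03, adjusted p = 0.824, 0.330 and 0.920), and each of these signs turned under at least 1 alternative. LAMTOR3 did pass after GC correction (0.31, adjusted p = 0.00235) and within 28 to 52 h alone (0.33, adjusted p = 0.00742).

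GATOR1 held the member with the largest difference. NPRL2 (ENSG00000114388, chromosome 3, 50347330 to 50351091, minus strand) ran from 10.2 through 19.9 to 22.6 FPKM at pH 7.4 and from 13.9 through 90.2 to 164 at pH 6.3. In acid it was at 18.4 at 4 h, 13.9 at 8 h, 30.9 at 16 h, 71.4 at 20 h and 118 at 32 h, and 164 FPKM at each of 44, 48 and 52 h. From 12 h each acid library exceeded every neutral one, and the difference over the course was 1.86 (SE 0.35, adjusted p = 0.000257). Within 4 to 24 h alone it was 0.60 and did not pass (adjusted p = 0.183), and within 28 to 52 h it was 2.94.

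Exons of NPRL2 overlap those of CYB561D2 on the opposite strand over 397 bases, 10.8% of its exonic length. CYB561D2 ran from 3.54 through 7.12 to 13.3 FPKM in neutral and from 6.88 through 27.6 to 49.2 in acidic medium. The kit was stranded, per the labels, but the strand setting of the quantification is not given in the sources used here, so the extent to which reads of either gene were counted for the other was not tested. The other GATOR1 subunits did not follow NPRL2. DEPDC5 ran from 13.4 through 18.7 to 29.1 FPKM and in acid from 5.4 through 11.5 to 19.2, lower at 12 of 13 times, with a mean difference of −0.82 (SE 0.19, adjusted p = 0.00120). Its widest contrast was at 12 h, 29.1 and 5.4 FPKM, in the neutral library of lowest depth. NPRL3 ran from 4.04 through 6.45 to 16.2 and from 4.01 through 4.55 to 9.36 FPKM and did not pass (−0.32, adjusted p = 0.125). It was lower after GC correction (−0.31, adjusted p = 0.0110), without the 6 time points that hold a library of low depth or one that followed GC content (−0.57, adjusted p = 0.00844) and without 48 h (−0.41, adjusted p = 0.0492). The ratio of NPRL2 to DEPDC5 had a median of 0.923 in neutral medium and 8.02 in acid, where it went from 1.28 at 4 h to 22.2 at 52 h.

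**Figure D2:**
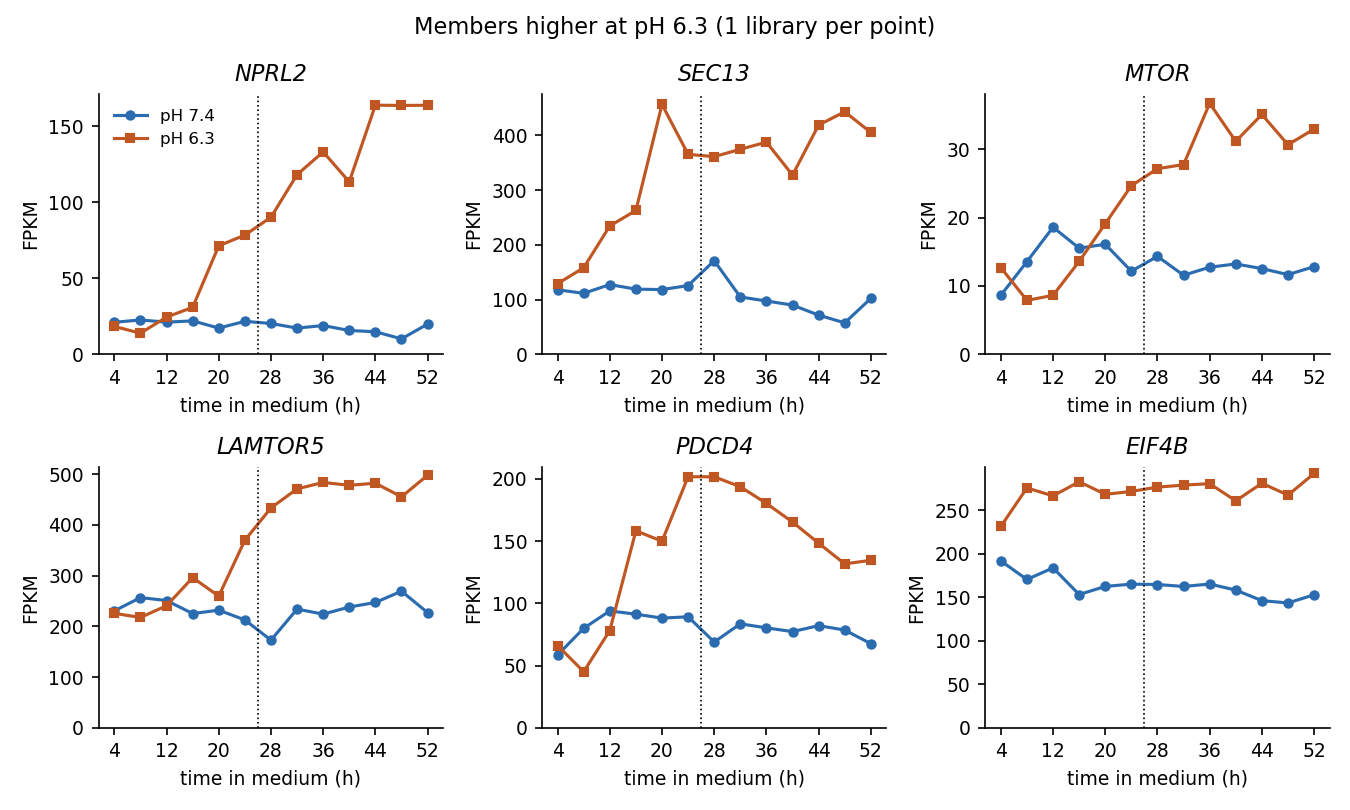
Level in FPKM (y axis, linear from 0) against hours in medium for 6 members higher at pH 6.3 (orange squares) than at pH 7.4 (blue circles), 1 library per point, with a dotted line between the sets of plates. NPRL2 in acid rises from 18.4 at 4 h to 164 at 52 h, SEC13 departs by 12 h, MTOR and PDCD4 lie above the neutral line at 4 h and below it at 8 and 12 h, and EIF4B is above it at all 13 times.

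In GATOR2, SEC13 was higher in acid. This small protein also serves the COPII coat of secretory vesicles and the nuclear pore. SEC13 (chromosome 3, 10293131 to 10321178, minus strand) ran from 57.5 through 112 to 171 FPKM at pH 7.4 and from 129 through 366 to 457 at pH 6.3. It was higher in acid at 13 of 13 times, with 129 beside 118 at 4 h, 235 beside 127 at 12 h and 443 beside 57.5 at 48 h, and the media did not overlap at 28 to 52 h. The neutral library of 12 h was of low depth and that of 48 h followed GC content. In the latter SEC13 was at 0.501 times the median of the other neutral libraries. The difference was 1.56 (SE 0.19, adjusted p = 6.42e-06), and 1.49 (adjusted p = 0.000790) without the 6 time points that hold a library of low depth or one that followed GC content.

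Of its GATOR2 partners MIOS and WDR59 were lower, SEH1L did not pass the test and WDR24 was too low to be tested. MIOS ran from 12.9 through 15.9 to 20.2 FPKM and in acid from 7.01 through 14.1 to 15.7; its acid values were lowest at 8 to 16 h, 7.01 to 9.07, and at 28 h the media were level. The difference was −0.38 (SE 0.10, adjusted p = 0.00496), −0.63 within 4 to 24 h and −0.16 within 28 to 52 h, where it did not pass (adjusted p = 0.0851), nor did it without the 6 time points (−0.23, adjusted p = 0.0867). WDR59 ran from 49.1 through 75.9 to 85.0 and from 48.4 through 64.8 to 69.6 FPKM, and its difference was −0.22 (SE 0.08, adjusted p = 0.0187) but −0.10 after GC correction, where it did not pass (adjusted p = 0.164). SEH1L, which also belongs to the nuclear pore, had its highest neutral value at 4 h, 57.5 FPKM, against a median of 30.4, and a median of 26.3 in acid. It did not pass (−0.12, adjusted p = 0.296), but was lower within 28 to 52 h alone, at 7 of 7 times (−0.24, adjusted p = 0.00663). WDR24 had medians of 0.326 and 0.688 FPKM and was higher in acid at 10 of 13 times; its highest values, 1.58 at pH 7.4, 28 h, and 2.43 at pH 6.3, 20 h, were both in libraries that followed GC content, and its transcripts are 64.3% GC.

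The brakes restrain mTORC1 under stress: sestrin 2 (SESN2) binds GATOR2 and senses leucine, and DDIT4 (REDD1) acts through the TSC complex. SESN2 (chromosome 1, 28259527 to 28282491, plus strand) ran from 2.73 through 4.82 to 8.33 FPKM at pH 7.4 and from 5.46 through 11.3 to 19.5 at pH 6.3. At 4 h it was lower in acid (5.46 beside 7.03), at 8 and 12 h it was at 18.2 and 19.5 beside 5.47 and 5.67, and at 24 to 40 h it was between 8.16 and 9.04 before 11.9 to 14.3 at 44 to 52 h. It was higher by 1.04 (SE 0.17, adjusted p = 8.96e-05), in 12 of 13 times, and by 0.70 without the 6 time points named above (adjusted p = 0.00649).

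DDIT4 (chromosome 10, 72273920 to 72276036, plus strand) ran from 13.8 through 24.2 to 40.6 FPKM and in acid from 7.06 through 53.7 to 72.8. It too was lower in acid at 4 h, 7.06 beside 13.8, then reached 64.1 to 72.8 at 12 to 20 h, 35.9 at 24 h and 47.8 to 61.3 at 28 to 52 h, where the media did not overlap. The difference was 0.87 (SE 0.17, adjusted p = 0.000305), higher at 12 of 13 times, and within 4 to 24 h alone 0.74 (adjusted p = 0.0729). An antisense transcript, DDIT4-AS1, overlaps 847 bases of its exons. Both genes had their only lower acid value at the first time point.

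**Figure D3:**
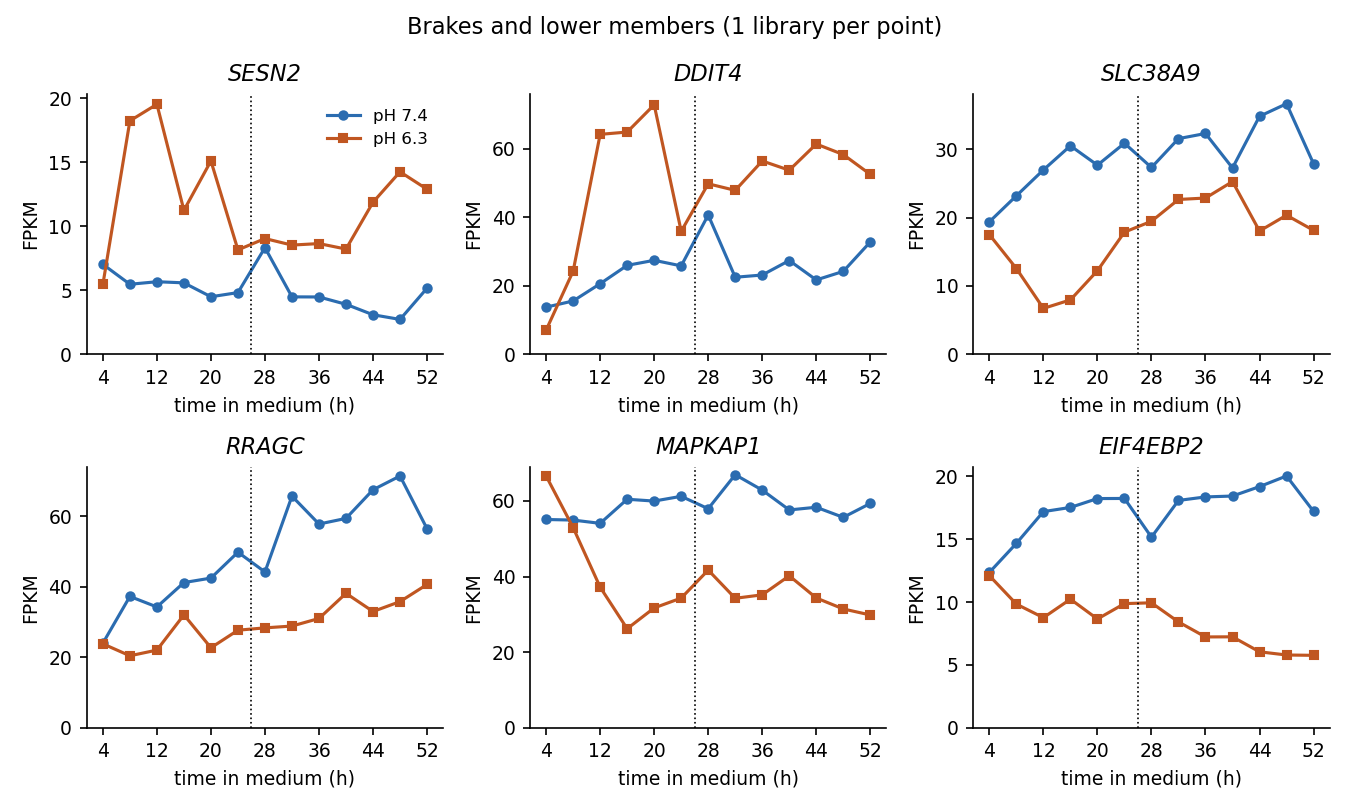
Level in FPKM (y axis, linear from 0) against hours in medium for the brakes SESN2 and DDIT4 and for 4 members lower at pH 6.3 (orange squares) than at pH 7.4 (blue circles), 1 library per point, with a dotted line between the sets of plates. SESN2 peaks in acid at 8 and 12 h (18.2 and 19.5), DDIT4 at 12 to 20 h, SLC38A9 is lowest in acid at 12 h (6.72) and EIF4EBP2 is lowest in acid at 48 and 52 h.

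Among the translation outputs the paralogous repressors of the cap-binding protein eIF4E, which mTORC1 inactivates, went in opposite directions. EIF4EBP2 (chromosome 10, 70404379 to 70428618, plus strand) ran from 12.4 through 18.1 to 20.0 FPKM at pH 7.4 and from 5.76 through 8.65 to 12.1 at pH 6.3, so that the highest acid value, at 4 h, lay below the lowest neutral one, also at 4 h. The difference was −0.97 (SE 0.12, adjusted p = 9.44e-06), −0.67 within 4 to 24 h and −1.23 within 28 to 52 h. EIF4EBP1 ran from 5.20 through 19.0 to 49.5 and in acid from 22.6 through 26.8 to 53.1 FPKM. It was higher by 0.67 (SE 0.22, limma adjusted p = 0.0164) but by 0.36 (adjusted p = 0.0258) without the 6 time points. It did not pass within 4 to 24 h (adjusted p = 0.0883) or 28 to 52 h alone (adjusted p = 0.0794). Its neutral extremes and its highest acid value were in libraries that followed GC content. The ratio of EIF4EBP1 to EIF4EBP2 had a median of 1.05 in neutral medium and 3.13 in acid, and the sum of both relative to EIF4E had medians of 0.655 and 0.691.

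EIF4B, a cofactor of the translation helicase, was higher at every hour. It ran from 143 through 162 to 192 FPKM at pH 7.4 and from 231 through 276 to 292 at pH 6.3, with no overlap, and was higher by 0.74 (SE 0.06, adjusted p = 2.18e-07). PDCD4, an inhibitor of that helicase, ran from 58.5 through 80.3 to 93.9 FPKM and in acid from 45.1 through 150 to 202. It was lower in acid at 8 and 12 h, 45.1 and 78.2 beside 80.0 and 93.9, times that each hold a library of low depth. From 16 h on it was higher in acid, and it was highest at 24 and 28 h. Its difference was 0.72 (SE 0.16, adjusted p = 0.00115). Exons of BBIP1 on the opposite strand cover 1277 bases of those of PDCD4, and BBIP1 had means of 33.3 FPKM in neutral and 41.3 in acidic medium.

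EIF4E itself, the cap-binding protein, ran from 43.4 through 54.6 to 75.6 and from 37.8 through 48.5 to 62.2 FPKM. It fell by 0.19 (SE 0.08, adjusted p = 0.0494), a call that held in 7 of 23 alternatives and in 4 of the 13 that left out 1 time point (8, 12, 28 or 52 h). After GC correction it was −0.03 (adjusted p = 0.739). The S6 kinase genes did not pass in the fit reported: RPS6KB1 had medians of 51.4 and 55.1 FPKM (−0.02, adjusted p = 0.830) and RPS6KB2 of 12.0 and 14.2 (0.35, adjusted p = 0.108). RPS6KB2 was higher after quantile normalization (0.47, adjusted p = 0.0194), after GC correction (0.36, adjusted p = 0.00578) and without 28 h (0.47, adjusted p = 0.0217). Not called either was the scaffold EIF4G1, with medians of 128 and 118 FPKM (−0.02, adjusted p = 0.908). The signs of RPS6KB1 and EIF4G1 turned with the scaling.

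Read by hour, the members parted after the first time point, and so did all genes tested. A gene was counted at an hour if its log2(FPKM + 1) differed by at least 1 between media, which can miss 2-fold differences of low FPKM. At 4 h none of 37 was counted in either direction, beside 1.75% of all genes tested that were higher and 2.04% that were lower by that much. At 12 h 7 of 37 members were lower by that much (17% of all genes) and 2 higher (5.69%). At 48 h 12 were higher by that much (17.8%) and 1 lower (10.1%). The median difference of the 9 Rag-Ragulator genes was below 0 at each time, from −0.03 at 4 h to −0.62 at 28 h, and that of all genes lay between −0.26 and 0.05. The brakes had a median of −0.59 at 4 h and between 0.20 and 1.63 at the other times. Members with 1 direction at 13 of 13 times were RHEB, SEC13 and EIF4B, higher, and RRAGA, RRAGC, SLC38A9 and EIF4EBP2, lower. These were 3 and 4 of 37 members, beside 525 higher and 970 lower of all 11838 genes tested. At 28 to 52 h the media did not overlap for 9 members that were higher (24.3%, beside 16.9% of all genes) and for 8 that were lower (21.6%, beside 23.4%).

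**Figure D4:**
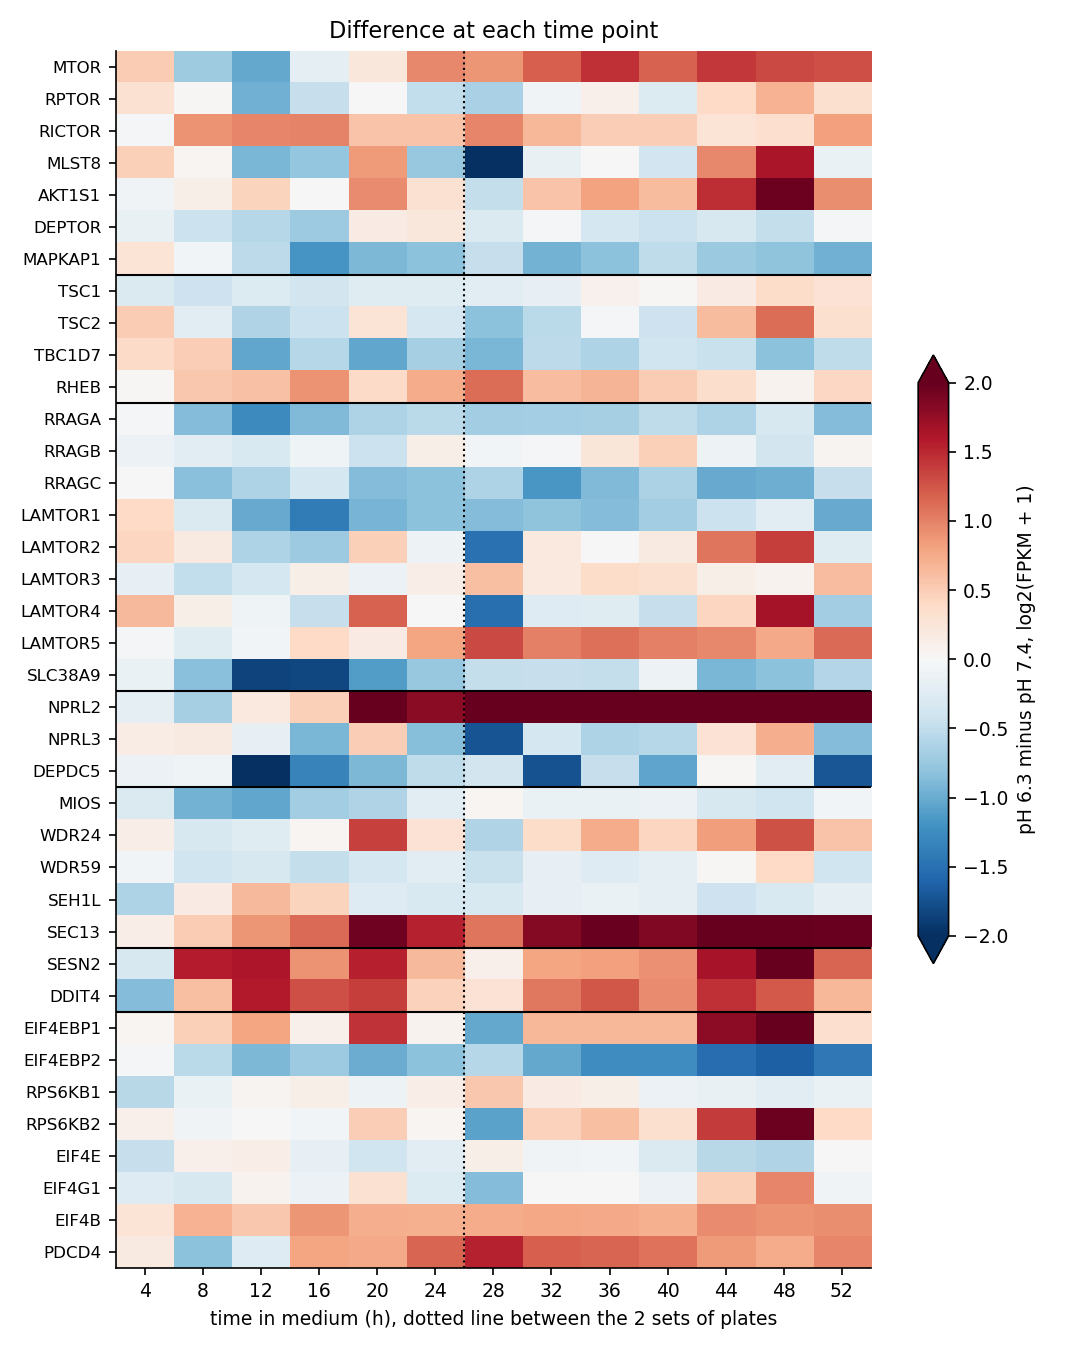
Difference between media (colour, log2(FPKM + 1), red higher at pH 6.3, limits at −2 and 2) for the 38 members (y axis, horizontal lines between roles) at each hour in medium (x axis), with a dotted line between the sets of plates. NPRL2 and SEC13 are red through the second set; at 28 h MLST8, LAMTOR2, LAMTOR4 and EIF4EBP1 are blue and at 48 h red.

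Some of the columns in that map went with base composition. Of 15 members whose transcripts are at least 55% GC, 15 were above the median of the other neutral libraries at pH 7.4, 28 h, by a median of 1.90 times, and 15 were below it at 48 h, with a median of 0.488 times. Of the 23 members under 55%, 8 were above it at 28 h (median 0.852 times) and 13 at 48 h (median 1.09 times). In acidic medium at 20 h 13 of the 15 GC-rich members were above the median of their medium, and 4 of the other 23. MLST8 was at 24.6 FPKM at 28 h and 3.11 at 48 h, LAMTOR4 at 51.0 and 8.89, and EIF4EBP1 at 49.5 and 5.20, all in neutral medium. Differences of these members at single hours therefore went with a GC shift of the library, whose part in them was not tested; the acid effect after GC correction was 0.66 for EIF4EBP1, 0.54 for AKT1S1, 1.06 for SESN2 and 1.66 for SEC13.

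**Figure D5:**
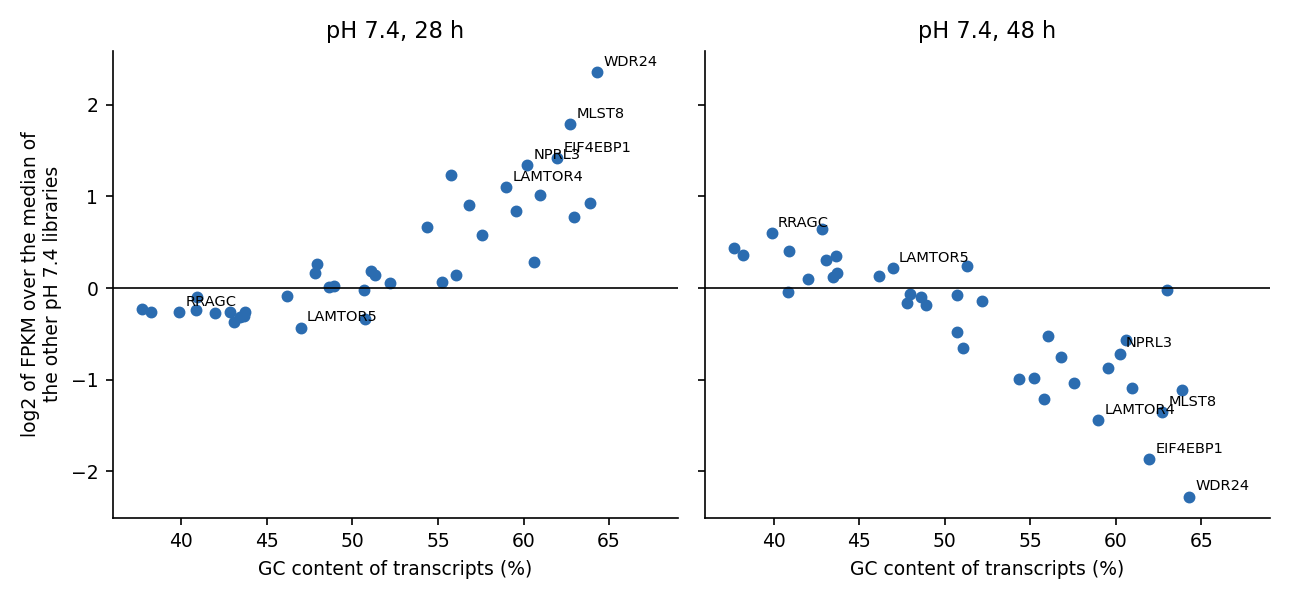
Each point is 1 of the 38 members; x axis, GC content of its transcripts in percent; y axis, log2 of its FPKM in the library named over the median of the other pH 7.4 libraries. Members of at least 55% GC lie above 0 at 28 h (median 1.90 times) and below 0 at 48 h (median 0.488 times).

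The second comparison asked whether the difference between media changed from the 4 to 24 h plates to the 28 to 52 h plates. It grew for 5 of 37 members (13.5%, beside 10.5% of all genes). They were NPRL2, by 2.34 on the log2 scale (SE 0.40, adjusted p = 0.00203), MTOR, by 1.28 (SE 0.27, adjusted p = 0.00611), SEC13, by 1.00 (SE 0.30, adjusted p = 0.0320), LAMTOR5, by 0.87 (SE 0.15, adjusted p = 0.00225), and LAMTOR3, by 0.47 (SE 0.14, adjusted p = 0.0349). No member passed in the other direction by limma (1 at an unadjusted p below 0.05), beside 6.56% of all genes. Without the 6 time points that hold a library of low depth or with a GC shift, 0 members passed in either direction (7 higher and 1 lower at an unadjusted p below 0.05) and 2 of all genes did. NPRL2 then differed by 2.11 (adjusted p = 0.0569), MTOR by 0.85 (adjusted p = 0.120), SEC13 by 0.98, LAMTOR5 by 0.68 and LAMTOR3 by 0.34. Single time points also decided calls: that of SEC13 ended without 4, 8, 12, 16, 36, 44, 48 or 52 h and that of LAMTOR3 without 8, 12, 28, 36, 40 or 52 h.

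The plate sets were then compared within each medium. In acid 10 members were higher on the later plates (27.0%, beside 25.0% of all genes) and 1 was lower (2.70%, beside 16.6%). MTOR had a mean of 14.4 ± 6.43 FPKM at 4 to 24 h (SD, n = 6) and of 31.6 ± 3.55 at 28 to 52 h (SD, n = 7), and limma gave 1.18 (adjusted p = 2.06e-05). NPRL2 had means of 39.6 ± 28.1 and 135 ± 29.6 FPKM (2.0, limma adjusted p = 4.22e-06). LAMTOR5 had means of 268 ± 57.1 and 472 ± 21.3 (0.84, limma adjusted p = 7.82e-07) and LAMTOR3 of 43.2 ± 8.91 and 72.2 ± 4.82 (0.75, limma adjusted p = 7.26e-06). TSC1, SLC38A9, SEC13, MIOS, PDCD4 and RRAGC were the others that were higher, by 0.43 to 0.77. Of these the call of SEC13 ended without 4 or 8 h, and that of PDCD4 without 4, 8 or 12 h, its value then falling as low as 0.44. EIF4EBP2 was the member that was lower, with means of 9.90 ± 1.25 and 7.2 ± 1.55 FPKM (−0.42, limma adjusted p = 0.00557).

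In neutral medium RRAGC was the one member that was higher on the later plates (2.70%, beside 4.44% of all genes), with means of 38.2 ± 8.72 at 4 to 24 h and 60.4 ± 9.0 FPKM at 28 to 52 h (0.67, limma adjusted p = 0.00273). None was lower by limma (2 at an unadjusted p below 0.05), beside 3.14% of all genes. RRAGC passed on the later plates in both media, and its plate set difference of the acid effect did not pass (−0.23, adjusted p = 0.368). Without the 6 time points the neutral call of RRAGC did not pass (0.69, adjusted p = 0.144). In acid the call of RRAGC ended without those times (0.30, adjusted p = 0.319) and after GC correction (0.24, adjusted p = 0.114). The acid calls of SLC38A9, MIOS, SEC13 and PDCD4 ended without those times too, which left 5 of the 10, and that of PDCD4 also after GC correction (0.49, adjusted p = 0.0624).

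Other genes of the pathway, from lists chosen by function, were read in the same fit, in which 22.4% of all genes were higher and 37.3% lower. No test was made of the shares of these lists. In the growth factor arm 3 of 15 tested genes were higher and 3 lower: the insulin receptor substrate IRS1 rose from 6.50 ± 0.783 to 15.3 ± 3.10 FPKM (SD, n = 13; 1.11, adjusted p = 2.91e-07), while the receptor gene IGF1R fell from 32.8 ± 9.07 to 13.9 ± 7.03 FPKM (−1.25, adjusted p = 2.73e-06). The PI3-kinase subunit PIK3CD differed by −0.96, and most at 28 h (−2.23), where the neutral library followed GC content. In the AMPK arm 3 of 9 were higher, among them the kinase STK11 (0.69) and PRKAB1 (0.62), and 2 lower, STRADA (−0.79) and PRKAA1 (−0.35). PRKAB1 differed by 0.01 at 4 to 24 h and by 1.14 at 28 to 52 h. STK11, with transcripts of 62.5% GC, had its lowest and highest neutral values at 48 and 28 h. Its highest acid value was at 20 h, and all 3 libraries followed GC content. Of 15 other nutrient sensors and mTOR partners 2 were higher, SESN1 (0.34) and PRR5L (0.33), and 8 lower, among them FLCN (−0.93), which acts on the Rags, and TTI1 (−0.78), which helps assemble mTOR. FLCN too differed most at 28 h (−2.06).

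Genes next to mTORC1 output were read likewise, against the same 22.4% of all genes higher and 37.3% lower. Of 8 genes of the autophagy kinase complex and the MiT factors 6 were higher and none lower, with ATG101 at 19.7 ± 7.52 and 49.6 ± 11.9 FPKM (SD, n = 13; 1.35, adjusted p = 2.32e-05) and ATG13 higher by 0.73. ATG101, with transcripts of 59.8% GC, had its neutral extremes at 48 h (7.48) and 28 h (36.3), in libraries that followed GC content. ATG13 differed by 0.31 at 4 to 24 h and by 1.08 at 28 to 52 h. Of 12 other translation factors 7 were higher, among them EEF2 (0.67) and EIF4E2 (0.44), and 2 lower, EIF4G3 (−1.03) and EIF4G2 (−0.38). Of 7 amino acid transporters 6 were higher and none lower. SLC3A2, the shared heavy chain, had means of 133 ± 33.9 and 342 ± 79.9 FPKM (SD, n = 13) and differed by 1.35 (limma adjusted p = 9.03e-06). The glutamine carrier SLC1A5 was higher by 1.17. Both differed more at 28 to 52 h (1.81 and 1.60) than at 4 to 24 h (0.81 and 0.66). All 7 of the transcription factors and companions known to be induced with the brakes were higher, with DDIT3 at 16.2 ± 2.42 and 81.5 ± 61.3 FPKM (SD, n = 13; 1.97, adjusted p = 3.17e-06) and the glucocorticoid target TSC22D3 at 11.6 ± 6.83 and 243 ± 145 FPKM (4.00, adjusted p = 6.46e-07). Medians of these lists were 0.52 for the autophagy and MiT genes, 0.20 for the translation factors, 0.98 for the transporters and 1.37 for the companions of the brakes, beside −0.12 for all genes; the growth factor arm had 0.05, the AMPK arm 0.21 and the other sensors −0.29.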

How the data were processed

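The 26 libraries share 1 table, in which the authors deposited FPKM, fragments scaled to transcript length and to the library's mapped fragments. Reads were aligned with STAR and quantified with Cufflinks on hg38, per the submitters' processing notes; the sources used here do not state versions, annotation release or strand setting. Libraries came from a stranded kit for polyadenylated RNA, from RNA with integrity numbers of 8.7 to 10.0 (median 9.7), per the labels' protocols. The table has no total counts. Depth was taken from the steps between low values in 1808 single-transcript genes. At the depth chosen, 184 to 254 values per library lay between 0.5 and 3.5 fragments. Of these 88.7% to 94.4% per library were within 0.1 of a whole fragment. The depth was picked to make the number of such values largest, so these shares do not test it.

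Tests ran on log2(FPKM + 1) of 11838 genes, those whose mean reached 1 FPKM, in limma 3.58.1 in R 4.3.3 (trend in the mean, Benjamini-Hochberg adjustment, threshold 0.05), in 1 fit of the whole table. Time points were blocks in the fit of the acid effect: per the labels' protocols, harvests were shared by the media. Across genes the deviations of libraries that share a time point correlated at −0.51 to 0.42 (median 0.03). The plate set difference was the interaction of pH with plate set, and late against early within a medium came from the cell means. Coordinates, GC content and exon overlaps are from GENCODE 29 (GRCh38). The limma fits of these comparisons, under the main setting, were tested on simulated data with changes of known size. The other steps were not.

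The members and lists were chosen with earlier results of these data known. The text names every member and, of each further list, up to 2 increases and 2 decreases that pass and reach 5 FPKM in the higher medium. The alternatives changed the pseudocount (0.1), the filter (none, 5 FPKM), the scaling (upper quartile, quantile), the GC content, the block, the plate set and the time points used. Proteins were not analysed here. Individual values of some genes on the marker and pathway lists are not reported here, though the counts and sums over those lists include them.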

Additional observations from a re-analysis of the deposited data

Results flagged for a closer look

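For 5 members the difference between media was not the same on the 4 to 24 h plates as on the 28 to 52 h plates, by the interaction test in limma. The later difference minus the earlier one was 2.34 for NPRL2 (SE 0.40, adjusted p = 0.00203), 1.28 for MTOR (SE 0.27, adjusted p = 0.00611), 1.00 for SEC13 (SE 0.30, adjusted p = 0.0320), 0.87 for LAMTOR5 (SE 0.15, adjusted p = 0.00225) and 0.47 for LAMTOR3 (SE 0.14, adjusted p = 0.0349) on the log2 scale. The media crossed for MTOR, with acid higher at 3 of 6 early times and 7 of 7 late ones. The early times with acid lower included 8 and 12 h, which each hold a library of low depth. Plate set and time in medium cannot be told apart here.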

How the results depend on the processing

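The 12 higher and 12 lower members of the acid effect were 5 and 7 within 4 to 24 h alone, and 12 and 12 with no replicate block. Over all 11838 genes the 2651 higher and 4415 lower were 1015 and 2141 within 4 to 24 h, and 2685 and 4492 with no block. Leaving out 1 time point in turn gave 12 to 13 and 10 to 12 members, and 2423 to 2785 and 4175 to 4590 of all genes. For the plate set difference the 5 higher members were 9 after GC correction, 0 without the 6 doubted time points, 6 with no replicate block and 3 to 7 with 1 time point left out; 3 were left without 8 h, 12 h, 36 h or 52 h. The 0 lower ones were 1 after GC correction, 1 with no replicate block and 0 to 1 with 1 time point left out. Of all genes 1248 were higher and 777 lower in this comparison, 1607 and 1483 after GC correction (of 11815), 2 and 0 without the 6 time points, 1664 and 1053 with no replicate block, and 791 to 1626 and 500 to 1025 with 1 time point left out. For neutral medium the 1 higher member was 0 without the 6 time points and 1 to 3 with 1 time point left out, and the 0 lower ones were 1 after GC correction and 0 to 5, the last without 28 h; of all genes 526 and 372 became 22 and 5 without the 6 time points, 732 and 710 after GC correction, and 349 to 778 and 220 to 912. For acidic medium the 10 higher members were 5 without the 6 time points and 8 to 11 with 1 left out, and the 1 lower one was 4 after GC correction and 1 to 2; of all genes 2957 and 1969 became 1115 and 840, 2810 and 2765, and 2484 to 3280 and 1603 to 2116 in the same order. Within 4 to 24 h alone AKT1S1 was 0.29, LAMTOR5 0.17 and PDCD4 0.30. Gained calls of the acid effect were those of LAMTOR3, NPRL3, SEH1L and RPS6KB2.

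Signs of the acid effect turned for 1 called member, MTOR (−0.036 within 4 to 24 h alone), and for uncalled members as follows. Quantile normalization gave RPTOR 0.089, MLST8 0.033, TSC1 0.0024, TSC2 0.079 and RRAGB 0.067. GC correction gave TSC1 0.027, RRAGB 0.093, SEH1L 0.0055, RPS6KB1 0.126 and EIF4G1 0.042, and upper-quartile scaling RPS6KB1 0.012 and EIF4G1 0.018. Without the 6 time points RRAGB was 0.098, LAMTOR2 −0.043 and LAMTOR4 −0.209. Within 4 to 24 h LAMTOR2 was −0.063, LAMTOR3 −0.145 and SEH1L 0.012. Within 28 to 52 h RPTOR was 0.076, TSC1 0.076, TSC2 0.036, RRAGB 0.035, LAMTOR4 −0.153, RPS6KB1 0.027 and EIF4G1 0.054. None of these turned values passed the test. With 1 time point left out, MLST8 ran from −0.265 to 0.072, TSC2 from −0.138 to 0.024, LAMTOR2 from −0.058 to 0.182, LAMTOR4 from −0.110 to 0.154, RPS6KB1 from −0.069 to 0.023 and EIF4G1 from −0.099 to 0.054. The cause of these changes was not tested. With 1 library per pH and time, library noise cannot be told apart from change over time, and the exact number of fragments behind a value is unknown.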
